A study of Homo sapiens with 4 samples.

Results

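Wnt ligands are secreted glycoproteins that carry signals over short distances between embryonic cells. Before it can leave the cell and bind a Frizzled receptor, a Wnt protein needs a lipid that the enzyme Porcupine, encoded by PORCN, attaches in the endoplasmic reticulum. IWP2 is a small-molecule Porcupine inhibitor, so it acts on Wnt proteins after they are translated and not on their messenger RNAs. In the gastrulating embryo, WNT3, WNT3A and WNT8A are known for β-catenin signaling at the primitive streak, while WNT5A, WNT5B and WNT11 are known for cell polarity and convergent extension movements.

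The genes described here are 10 Wnt ligand genes, WNT3, WNT3A, WNT8A, WNT5A, WNT5B, WNT11, WNT4, WNT2B, WNT6 and WNT10A, selected by gene symbol out of 58365 rows of the expression table. All 10 symbols had a row, and for WNT5A, which had more than 1, the row with the highest mean was taken. The human genome holds 19 such genes, and the remaining 9 are given more briefly. H1, an established human embryonic stem cell line, was differentiated toward blood for 2 days in mTeSR1-type medium with activin A and BMP4 (per the labels, 40 ng/ml and 50 ng/ml, amounts that the methods text assigns the other way round), and total RNA was sequenced from 2 libraries without IWP2, titled DMSO, and 2 libraries with IWP2. Both groups thus received activin A and BMP4 and differed in IWP2, whose dose is not given in the sources used here. Nothing in the labels says that the 2 libraries of a group came from separate cultures, so the p-values measure only the spread between these libraries, which may be technical, and all values come from 1 cell line.

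Values are FPKM, fragment counts scaled by transcript length and library size, which allows levels of different genes to be set side by side. The columns of the control libraries are named as without IWP2, and their replicate numbers are those of the column names. The table holds no counts, so the absolute depth behind a value is unknown. The step made by 1 fragment in rows of low value put the relative depth of the libraries between 0.889 and 1.10, with DMSO replicate 1 as the unit. This is a rough estimate, since only 24.0% to 28.6% of the rows used lay within 2% of the step. Each library had between 13831 and 13926 rows of at least 1 FPKM. In the control libraries, markers of the primitive streak and mesoderm were present (EOMES at 138 and 153 FPKM, MIXL1 at 278 and 317 FPKM), as the label of day 2 cells implies, and POU5F1 of the pluripotent state was still high at 751 and 571 FPKM. With IWP2, 8 of the 9 streak and mesoderm markers tested were lower (summed FPKM 150.05 and 172 against 1116 and 1419.8) and 4 of the 6 pluripotency markers were higher (summed FPKM 2387 and 2396 against 1167 and 969), with SOX2 at 35.6 and 36.1 FPKM against 0.193 and 0.174 FPKM. Among 5 endoderm markers, 4 were lower (summed FPKM 87.6 and 103 against 306 and 259). SOX17 was not called, at 79.7 and 94.9 FPKM with IWP2 against 155 and 104 in DMSO (limma adjusted p = 0.206). GATA6 fell from 119 and 134 FPKM to 3.52 and 3.01 FPKM. Of 8 endothelial and blood markers, 5 could be tested, of which 2 were lower and 3 did not pass. The erythroid factor GATA1 was listed at 0 in all 4 libraries. The sum of this list (39.3 and 36.7 FPKM with IWP2 against 56.2 and 63.9) was mostly KDR, at 38.6 and 35.7 FPKM against 53.2 and 60.4. RUNX1, the other lower gene, stood at 0.21 and 0.35 FPKM with IWP2 against 2.51 and 2.35. Genes of these lists changed in the same comparison as the Wnt ligand genes below, in both directions. Their part in the results was not tested, and in bulk RNA fewer cells of a type and less RNA per cell cannot be told apart.

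With IWP2, the Wnt ligand genes split into a group that fell, a group that rose and a group that did not pass the test. WNT5A, WNT5B, WNT3 and WNT4 fell, by between 2.30-fold and 27.0-fold as ratios of the mean FPKM. WNT2B and WNT6 rose 7.60-fold and 3.75-fold. WNT3A and WNT11 had lower values and WNT8A had similar ones, but none of the 3 passed, and WNT10A was listed at 0 in every library. The test was limma on log2(FPKM + 1) over the 21337 rows with a mean of at least 0.1 FPKM, with Benjamini-Hochberg adjustment over all of these rows and a threshold of 0.05. Of the 9 ligand genes that reached this mean, 6 were called, 4 lower and 2 higher, where over all rows tested 8.62% were called, 4.86% lower and 3.76% higher. The median log2 difference of the 9 was -0.52, beside -0.01 over all rows. The 2 IWP2 values lay outside the range of the 2 DMSO values for 8 of the 9, which was also the case for 54.1% of all rows. A fit to any 3 of the 4 libraries left 1 residual degree of freedom and made no call in the whole table. The direction of the 6 called genes held in each such fit. Their groups did not overlap, so leaving out 1 library could not have reversed it. With no filter on low rows, limma called WNT5A and WNT5B but not WNT3, WNT4, WNT2B or WNT6. For a single gene, 2 libraries against 2 allow 6 assignments, and the smallest two-sided exact permutation p is 0.333, so no call rests on that test.

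**Figure D1:**
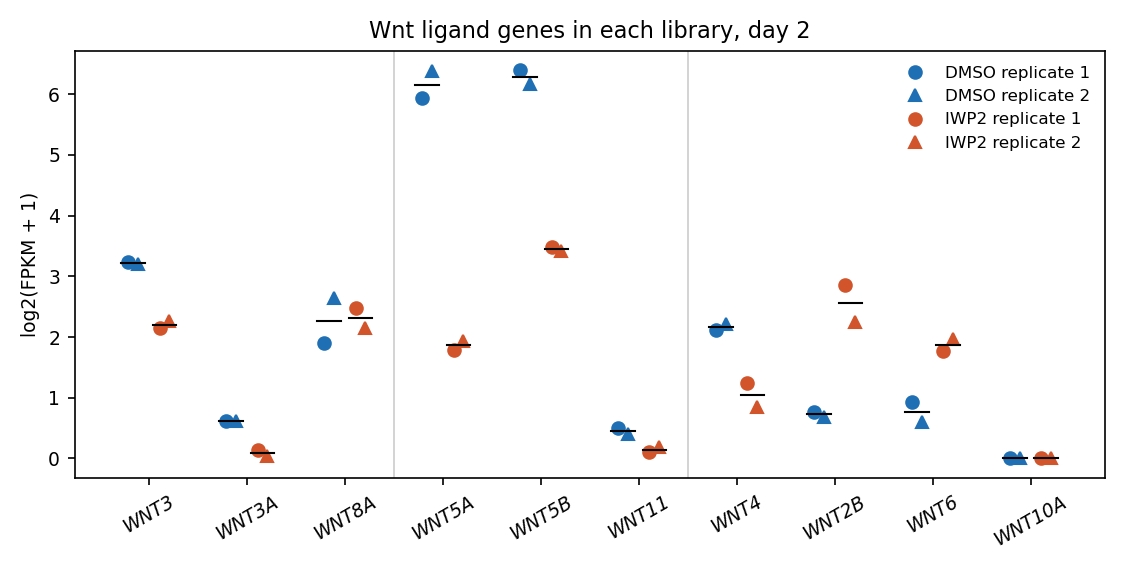
Level of each of the 10 Wnt ligand genes in each library, as log2(FPKM + 1), with DMSO libraries in blue, IWP2 libraries in orange and a black line at the mean of each group of 2. WNT5A and WNT5B sit highest in DMSO and drop in both IWP2 libraries, WNT2B and WNT6 rise, and WNT10A lies at 0.

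Among the ligands known for cell polarity, WNT5A and WNT5B were the Wnt genes with the highest levels in the control cells and the ones that fell most. WNT5A (ENSG00000114251.14, chromosome 3, 55465715 to 55489945, GRCh38) is the classic non-canonical ligand, which signals through the receptor ROR2 and is needed for outgrowth of the body axis. It stood at 60.1 and 82.4 FPKM in the DMSO libraries and at 2.45 and 2.82 FPKM in the IWP2 libraries. The highest IWP2 value was thus far below the lowest DMSO value. The group means were 71.3 ± 15.7 FPKM (SD, n = 2) and 2.64 ± 0.261 FPKM (SD, n = 2), a 27.0-fold difference. On the log2(FPKM + 1) scale the difference was -4.30 ± 0.17 (SE), with a limma adjusted p of 0.00112. A further row of the same gene ID, spanning chromosome 3, 55489155 to 55490539, was above 0 only in DMSO replicate 2, at 0.911 FPKM.

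The antisense gene WNT5A-AS1 (ENSG00000244586.1, chromosome 3, 55487699 to 55488308), a noncoding RNA on the opposite strand inside the annotated span of WNT5A, fell as well. Its row held 21.6 and 20.5 FPKM in DMSO and 1.96 and 1.399 FPKM with IWP2, and the log2 difference was -3.05 ± 0.15 (SE; limma adjusted p = 0.00179). The library kit does not mark strand, so reads of WNT5A and WNT5A-AS1 cannot be told apart where they overlap. In RefSeq (GRCh38.p14) a start of WNT5A and the start of WNT5A-AS1 face away from each other at a distance of 312 bases. The 250 bases before this WNT5A start are shown because they also hold part of the antisense gene's upstream region, and the capitals mark the 189 bases that both upstream regions share (chr3:55487307-55487556, minus strand, 5′ to 3′).
WNT5A upstream: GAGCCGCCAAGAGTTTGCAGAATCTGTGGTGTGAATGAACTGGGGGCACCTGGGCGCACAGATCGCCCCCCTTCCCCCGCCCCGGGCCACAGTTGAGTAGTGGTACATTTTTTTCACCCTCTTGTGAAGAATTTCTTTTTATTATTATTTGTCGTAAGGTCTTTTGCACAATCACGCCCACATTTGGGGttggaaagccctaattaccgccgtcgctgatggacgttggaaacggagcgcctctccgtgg

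WNT5B (ENSG00000111186.12, chromosome 12, 1529891 to 1647243), a close relative of WNT5A with a role in chondrocyte development and tissue elongation, stood at 83.2 and 70.9 FPKM in DMSO and at 10.1 and 9.67 FPKM with IWP2. The groups were well apart, at 77.0 ± 8.65 FPKM and 9.90 ± 0.328 FPKM (SD, n = 2 each), a 7.78-fold difference. The log2 difference was -2.84 ± 0.11 (SE; limma adjusted p = 0.000953). Even after this drop WNT5B remained the Wnt gene with the highest FPKM in both IWP2 libraries. FBXL14, an F-box gene that lies on the other strand within the span of the WNT5B row, had 7.34 and 7.62 FPKM in DMSO and 5.42 and 4.76 FPKM with IWP2, and did not pass the test (limma adjusted p = 0.101). The ratio of WNT5A to WNT5B was 0.723 and 1.16 in the DMSO libraries and 0.242 and 0.292 in the IWP2 libraries, so WNT5A took the smaller part of the pair in both IWP2 libraries and in DMSO replicate 1.

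WNT11 (ENSG00000085741.12, chromosome 11, 76186325 to 76210736), the third polarity ligand and a regulator of cell movement in gastrulation and of heart formation, was low throughout. Its values were 0.417 and 0.323 FPKM in DMSO and 0.0711 and 0.138 FPKM with IWP2. Both IWP2 values were below both DMSO values, but all 4 were under 1 FPKM. The means of 0.370 ± 0.0664 FPKM and 0.104 ± 0.0470 FPKM (SD, n = 2 each) differed by a log2 value of -0.31 with a 95% interval from -0.65 to 0.02, and the limma adjusted p was 0.235. At such levels the added 1 FPKM understates a difference, and with 0.1 FPKM added instead the log2 difference was -1.21, still above the threshold with a limma adjusted p of 0.236. Over the alternatives that kept all 4 libraries the adjusted p of WNT11 ran from 0.139 to 0.319.

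Of the β-catenin ligands of the primitive streak, only WNT3 passed the test. WNT3 (ENSG00000108379.9, chromosome 17, 46762506 to 46833154) is required for primitive streak formation in the mouse embryo. It had 8.38 and 8.19 FPKM in DMSO and 3.41 and 3.78 FPKM with IWP2. The libraries of each group lay close together and the groups did not overlap, with means of 8.28 ± 0.138 FPKM and 3.60 ± 0.260 FPKM (SD, n = 2 each). WNT3 was thus 2.30-fold lower with IWP2, with a log2 difference of -1.02 ± 0.13 (SE; limma adjusted p = 0.0162). Its neighbor WNT9B begins 46 bases beyond the end of the WNT3 row and is read in the opposite direction. In RefSeq the start of WNT3 lies inside its row, at position 46818692, so the 46 bases are a distance between rows. WNT9B was low in all libraries, between 0.165 and 0.419 FPKM, and its groups overlapped.

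WNT3A (ENSG00000154342.5, chromosome 1, 228007051 to 228061260), which maintains the posterior streak and the mesoderm of the tail, had 0.538 and 0.530 FPKM in DMSO and 0.104 and 0.0343 FPKM with IWP2. The control libraries were nearly equal and both IWP2 values were lower. As a ratio of means the level was 7.74-fold lower, but on the log2(FPKM + 1) scale the difference was -0.52 ± 0.13 (SE) and missed the threshold with a limma adjusted p of 0.0818. With 0.1 FPKM added in place of 1 FPKM the log2 difference was -1.94, with a limma adjusted p of 0.0906. Over all alternatives that kept the 4 libraries the adjusted p of WNT3A ran from 0.0663 to 0.137.

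WNT8A (ENSG00000061492.11, chromosome 5, 138083892 to 138092365), a ligand of the early streak, differed from the others in that its groups overlapped. It had 2.74 and 5.22 FPKM in DMSO and 4.54 and 3.42 FPKM with IWP2. The DMSO libraries enclosed both IWP2 libraries. The means were 3.98 ± 1.75 FPKM and 3.98 ± 0.792 FPKM (SD, n = 2 each), and the log2 difference of 0.04 had a 95% interval from -0.71 to 0.79 (limma adjusted p = 0.955). The interval leaves room for a change in either direction, so equal expression is not shown. Without DMSO replicate 1 the estimate was -0.33 and without DMSO replicate 2 it was 0.41, so its sign was set by which control library was kept. It also turned to -0.12 without IWP2 replicate 1.

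**Figure D2:**
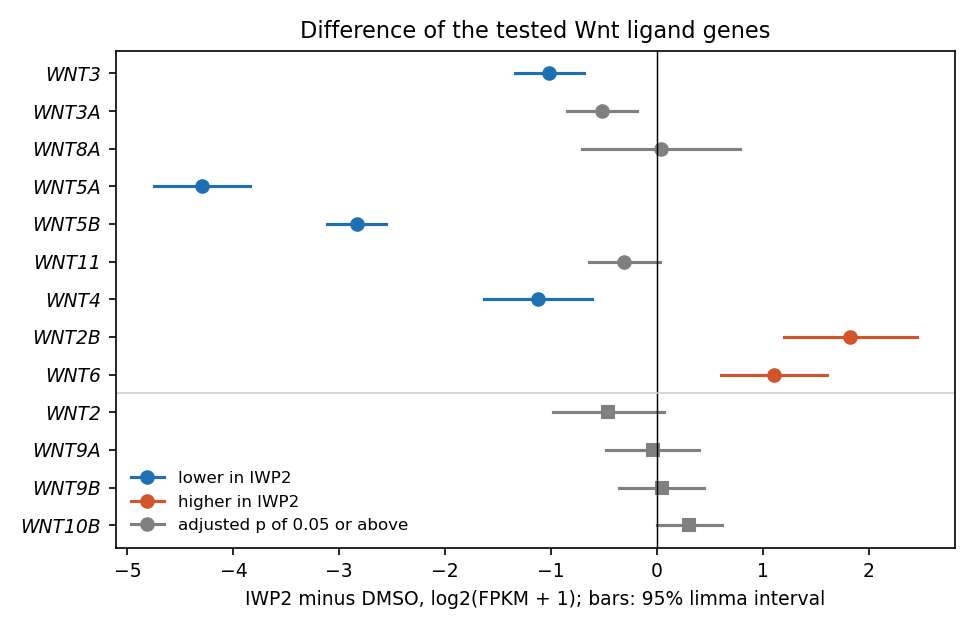
Difference between IWP2 and DMSO on the log2(FPKM + 1) scale with its 95% limma interval for the 9 tested Wnt ligand genes (circles) and 4 further Wnt genes (squares), colored where the adjusted p was under 0.05. WNT5A at -4.30 and WNT5B at -2.84 lie farthest to the left, WNT2B at 1.82 and WNT6 at 1.10 to the right, and WNT8A spans 0.

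The remaining ligands are best known from later organs and from ectoderm, and they moved in both directions. WNT4 (ENSG00000162552.14, chromosome 1, 22117305 to 22143969), known for kidney tubule formation and ovary development, had 3.31 and 3.64 FPKM in DMSO and 1.36 and 0.790 FPKM with IWP2. Both IWP2 libraries lay below both controls. The means of 3.48 ± 0.228 FPKM and 1.07 ± 0.403 FPKM (SD, n = 2 each) gave a 3.23-fold lower level and a log2 difference of -1.12 ± 0.20 (SE; limma adjusted p = 0.0372). Over the alternatives with all 4 libraries its adjusted p ran from 0.0228 to 0.118, so the call depended on the setting.

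WNT2B (ENSG00000134245.17, chromosome 1, 112466541 to 112530165), a β-catenin ligand known from the developing eye, liver and limb, was the ligand that rose most. It had 0.709 and 0.605 FPKM in DMSO and 6.21 and 3.77 FPKM with IWP2. Both IWP2 libraries were above both controls, although they differed between themselves by more than the controls did. The means were 0.657 ± 0.0731 FPKM and 4.99 ± 1.72 FPKM (SD, n = 2 each), and the log2 difference was 1.82 ± 0.24 (SE; limma adjusted p = 0.0182). ST7L, whose 3′ end overlaps WNT2B on the other strand, had 6.95 and 4.77 FPKM in DMSO and 6.75 and 7.08 FPKM with IWP2 (limma adjusted p = 0.525). The short antisense gene AL354760.1 inside the same locus stayed at or below 0.453 FPKM. Reads from the overlap cannot be assigned to a strand.

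WNT6 (ENSG00000115596.3, chromosome 2, 218859821 to 218874233), a ligand of surface ectoderm, had 0.905 and 0.511 FPKM in DMSO and 2.41 and 2.90 FPKM with IWP2. The groups did not overlap. The means were 0.708 ± 0.278 FPKM and 2.66 ± 0.347 FPKM (SD, n = 2 each), and the log2 difference was 1.10 ± 0.19 (SE; limma adjusted p = 0.0365). With 0.1 FPKM added in place of 1 FPKM it was 1.81 (limma adjusted p = 0.0402), and over the alternatives with all 4 libraries the adjusted p ran from 0.0261 to 0.115. WNT10A (ENSG00000135925.8, chromosome 2, 218880363 to 218899581), a ligand of tooth and hair development, lies 6129 bases downstream of WNT6 on the same strand. Its row was listed at 0 in all 4 libraries, so no difference could be tested for it, and without counts the level this leaves room for cannot be given.

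The order of the ligands by level changed between the groups. In the DMSO libraries the means ran from WNT5B and WNT5A through WNT3, WNT8A, WNT4, WNT6, WNT2B, WNT3A and WNT11 down to WNT10A. Neighbors in this order whose library ranges overlapped, and which therefore cannot be ranked, were WNT5B with WNT5A, WNT8A with WNT4, and WNT6 with WNT2B. In DMSO the range of WNT6 (0.511 to 0.905 FPKM) also overlapped that of WNT3A (0.530 to 0.538 FPKM), which is not its neighbor. With IWP2 the order was WNT5B, WNT2B, WNT8A, WNT3, WNT6, WNT5A, WNT4, WNT11, WNT3A and WNT10A, with overlaps between WNT2B and WNT8A, WNT8A and WNT3, WNT6 and WNT5A, and WNT11 and WNT3A. By mean alone, WNT2B moved from place 7 to place 2 and WNT5A from place 2 to place 6. Each of these places lies in such an overlap, so the exact places are not settled. With IWP2 the range of WNT2B (3.77 to 6.21 FPKM) also overlapped that of WNT3 (3.41 to 3.78 FPKM), which is not its neighbor. A mean of at least 1 FPKM was reached by 5 of the 10 ligands in DMSO and by 7 of the 10 with IWP2.

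Summed over all 19 Wnt ligand genes, the DMSO libraries held 163 and 174 FPKM and the IWP2 libraries 32.8 and 29.1 FPKM. WNT5A and WNT5B together made up 87.9% and 88.1% of this sum in DMSO and 38.4% and 42.9% with IWP2. Without that pair, the sum over the other 17 genes was 19.8 and 20.6 FPKM in DMSO and 20.2 and 16.6 FPKM with IWP2, and the groups overlapped. The lower total thus lay in WNT5A and WNT5B. The streak ligands WNT3, WNT3A and WNT8A summed to 11.7 and 13.9 FPKM in DMSO and to 8.06 and 7.24 FPKM with IWP2, and their share of the whole rose from 7.15% and 8.01% to 24.6% and 24.9%. The share of WNT4, WNT2B, WNT6 and WNT10A went from 3.02% and 2.73% to 30.4% and 25.7%. These shares are descriptions of messenger RNA levels and carry no test.

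**Figure D3:**
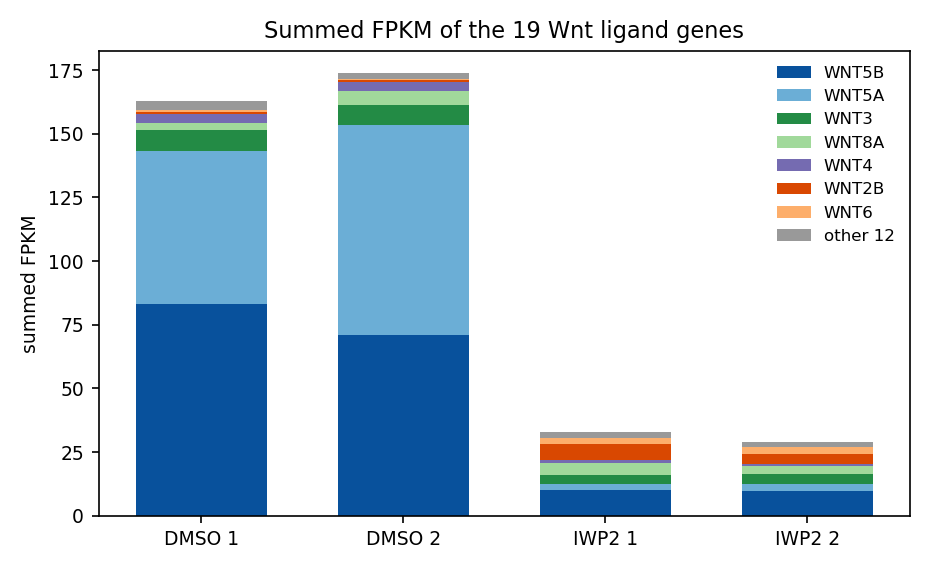
Summed FPKM of the 19 Wnt ligand genes in each library, stacked by gene, with the 12 genes of lowest level joined in grey. The bars reach 163 and 174 FPKM in the DMSO libraries and 32.8 and 29.1 FPKM in the IWP2 libraries, and most of the difference is the loss of the WNT5A and WNT5B segments.

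Of the other 9 Wnt ligand genes, 4 reached the mean needed for testing. limma called 0 of these 4, and 0 had an unadjusted p under 0.05. WNT2 had the highest mean of these in DMSO but not with IWP2, with 1.53 and 0.882 FPKM in DMSO and 0.659 and 0.521 FPKM with IWP2 (limma adjusted p = 0.258). WNT9A lay between 0.512 and 0.869 FPKM with overlapping groups. WNT10B was listed at 0 in both DMSO libraries and stood at 0.205 and 0.267 FPKM with IWP2 (limma adjusted p = 0.209). WNT7A, WNT7B, WNT8B and WNT16 stayed below 0.1 FPKM in every library, and WNT1 was listed at 0.

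**Figure D4:**
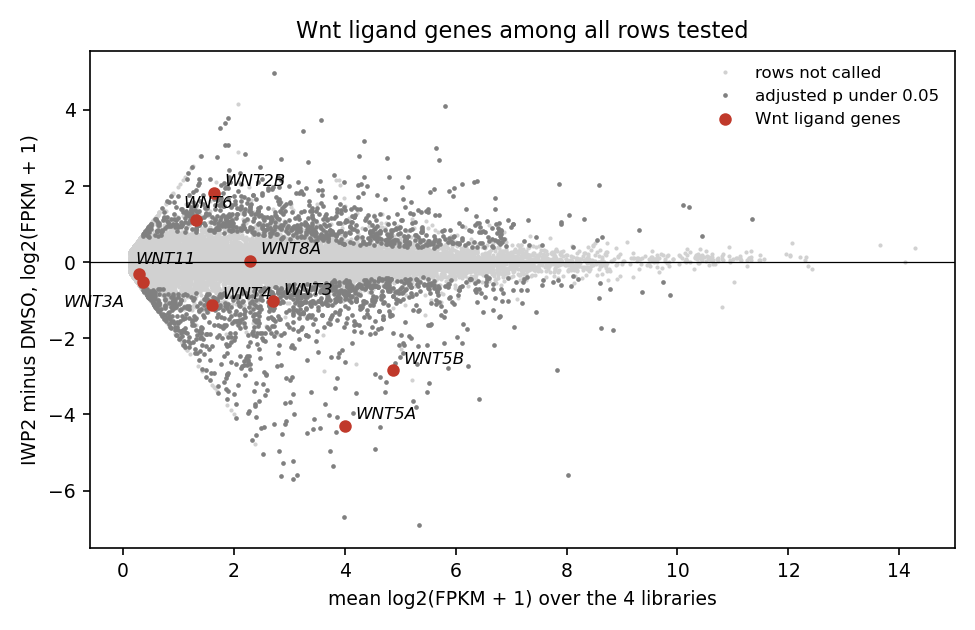
Difference between IWP2 and DMSO against the mean level, both on the log2(FPKM + 1) scale, for all 21337 rows tested (grey, darker where called) with the 9 tested Wnt ligand genes in red. WNT5A and WNT5B stand among the rows with larger decreases, WNT2B and WNT6 among the increases, while WNT3A and WNT11 lie at the low end, where the added 1 FPKM limits the size of a difference.

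The starts of these genes differ in base composition. RefSeq promoter windows were found for 9 of the 10 ligand genes, 12 windows in all, and not for WNT11. In the 250 bases before the start, the number of CG dinucleotides was 4 for WNT8A, 10 and 7 for the windows of WNT5B, and 14 and 18 for those of WNT5A, against a median of 11 over all 35116 windows. It was 26 for WNT3, 38 for WNT3A, 40 for WNT4, 32 for WNT6, 24 for WNT10A, and 18 and 38 for the windows of WNT2B. The table gives values per gene, so which start was used cannot be read from it. A window of the gene that fell 7.78-fold, both windows of the gene that rose most, the window of the ligand with overlapping groups and the CG-richest window are shown, 5′ to 3′ in the direction of the gene, with CG dinucleotides in capitals. Their positions in GRCh38.p14 are chr12:1616806-1617055 (plus strand), chr1:112466291-112466540 and chr1:112508715-112508964 (plus strand), chr5:138083783-138084032 (plus strand) and chr1:22143098-22143347 (minus strand).
WNT5B: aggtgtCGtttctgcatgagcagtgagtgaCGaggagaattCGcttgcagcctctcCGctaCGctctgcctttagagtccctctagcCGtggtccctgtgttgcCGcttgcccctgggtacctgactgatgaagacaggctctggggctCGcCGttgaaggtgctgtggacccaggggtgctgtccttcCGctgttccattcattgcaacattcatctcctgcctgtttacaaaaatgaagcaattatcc
WNT2B first window: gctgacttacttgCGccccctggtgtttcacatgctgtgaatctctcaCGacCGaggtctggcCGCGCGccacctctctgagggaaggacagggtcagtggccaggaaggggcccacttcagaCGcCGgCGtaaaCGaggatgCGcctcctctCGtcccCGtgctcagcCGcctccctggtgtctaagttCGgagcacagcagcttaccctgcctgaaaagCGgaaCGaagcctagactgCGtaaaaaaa
WNT2B second window: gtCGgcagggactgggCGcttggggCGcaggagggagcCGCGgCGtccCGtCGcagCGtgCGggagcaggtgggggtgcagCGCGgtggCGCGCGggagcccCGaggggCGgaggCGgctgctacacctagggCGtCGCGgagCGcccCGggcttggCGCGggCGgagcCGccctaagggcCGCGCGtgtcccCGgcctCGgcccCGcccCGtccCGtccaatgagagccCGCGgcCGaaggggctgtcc
WNT8A: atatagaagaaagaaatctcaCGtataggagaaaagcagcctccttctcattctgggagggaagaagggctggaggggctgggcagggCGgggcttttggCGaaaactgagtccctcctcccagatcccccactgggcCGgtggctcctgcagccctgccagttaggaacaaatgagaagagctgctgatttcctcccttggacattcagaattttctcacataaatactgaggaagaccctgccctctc
WNT4: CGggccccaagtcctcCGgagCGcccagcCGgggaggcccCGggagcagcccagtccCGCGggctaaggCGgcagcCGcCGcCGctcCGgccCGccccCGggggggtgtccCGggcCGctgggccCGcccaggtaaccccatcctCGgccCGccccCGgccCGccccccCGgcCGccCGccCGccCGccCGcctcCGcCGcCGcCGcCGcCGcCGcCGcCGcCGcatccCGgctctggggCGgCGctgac

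The same 12 windows were searched on both strands for letters bound by TCF/LEF factors, the DNA-binding partners of β-catenin (CTTTG followed by AA, AT, TA or TT), and for the T-box letters AGGTGTGA, with no overlap between these motifs. Neither was found in any of the 12. Over all windows, 12% held the TCF/LEF letters and 0.786% the T-box letters. The search says only that these letters are not in these 250 bases.

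The genes that lipidate, carry and release Wnt proteins moved in both directions. PORCN, the target of IWP2, had 15.5 and 10.1 FPKM in DMSO and 6.97 and 6.97 FPKM with IWP2, and missed the threshold (limma adjusted p = 0.104). WLS, the carrier that brings Wnt proteins to the cell surface, fell from 122 and 129 FPKM to 71.0 and 60.7 FPKM, a log2 difference of -0.92 ± 0.10 (SE; limma adjusted p = 0.0115). Of 7 genes for secretion and release, 3 were lower and 1 higher. NOTUM, which removes the lipid from Wnt proteins, was 2.27-fold lower and TRABD2B, a protease of Wnt proteins, 10.7-fold lower, while the glypican GPC4 rose from 32.8 and 33.4 FPKM to 136 and 145 FPKM. With no filter on low rows, GPC4 was still called, but WLS, NOTUM and TRABD2B were not (limma adjusted p = 0.0662, 0.0606 and 0.0660).

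Among 16 receptor genes, 4 were lower and 1 was higher. FZD7, the Frizzled receptor with the highest FPKM in the control libraries, fell from 79.3 and 92.3 FPKM to 17.8 and 17.5 FPKM. ROR2 and ROR1, receptors of WNT5A, fell 3.46-fold and 1.80-fold, and FZD8 fell 2.18-fold. FZD5 rose, from 3.93 and 3.08 FPKM to 11.9 and 12.2 FPKM. In the R-spondin group, made of R-spondin ligands, their LGR receptors and the ligases RNF43 and ZNRF3 that remove Frizzled receptors from the cell surface, 3 of 8 tested genes were lower and none was higher, with LGR5 at 21.5 and 27.8 FPKM in DMSO and 0.105 and 0.0763 FPKM with IWP2. The other called genes there were LGR4 and the ligand RSPO3, which fell from 1.18 and 1.39 FPKM to 0.0487 and 0.113 FPKM. With no filter, the calls of ROR2, ROR1, FZD5 and RSPO3 were lost, with limma adjusted p between 0.0540 and 0.0606.

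Several secreted antagonists and many response genes of the pathway showed larger decreases. Of 8 secreted inhibitors tested, 5 were lower and none was called higher. The 3 not called, SFRP2, DKK3 and SFRP5, had both IWP2 values above both DMSO values. SFRP2 stood at 101 and 120 FPKM with IWP2 against 89.4 and 72.2 in DMSO (limma adjusted p = 0.140). DKK3 stood at 36.2 and 35.1 FPKM with IWP2 against 30.5 and 26.3 in DMSO (limma adjusted p = 0.141). CER1 is among the 5 counted as lower, although in mammals it is known as an antagonist of Nodal and BMP ligands. It went from 1612 and 2048 FPKM to 38.6 and 34.2 FPKM. DKK1, which blocks the co-receptor LRP6, went from 30.1 and 25.4 FPKM to 0.200 and 0.919 FPKM. FRZB and SFRP1 fell 7.47-fold and 2.34-fold, and DKK4 was listed at 0 in both IWP2 libraries after 1.99 and 1.34 FPKM in DMSO. Of 19 genes known to respond to β-catenin, 14 were lower, 5 did not pass and none was higher, with a median log2 difference of -1.75. This list also holds DKK1, LGR5 and NOTUM, counted above. SP5 went from 53.2 and 47.0 FPKM to 0.379 and 0.363 FPKM, LEF1 from 9.34 and 9.70 FPKM to 0.144 and 0.239 FPKM, NKD1 fell 27.8-fold and CDX2 fell 28.3-fold. The β-catenin core showed few changes, with 2 of 17 genes lower (APC and PYGO1) and 2 higher (TCF7L1 and TCF7L2). With no filter, none of these 4 calls was made (limma adjusted p between 0.0606 and 0.117), nor those of FRZB, SFRP1 and DKK4 (between 0.0718 and 0.103). Over the 75 genes of these lists, 70 were tested, 28 were lower and 4 higher, beside the 4.86% and 3.76% of all rows.

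**Figure D5:**
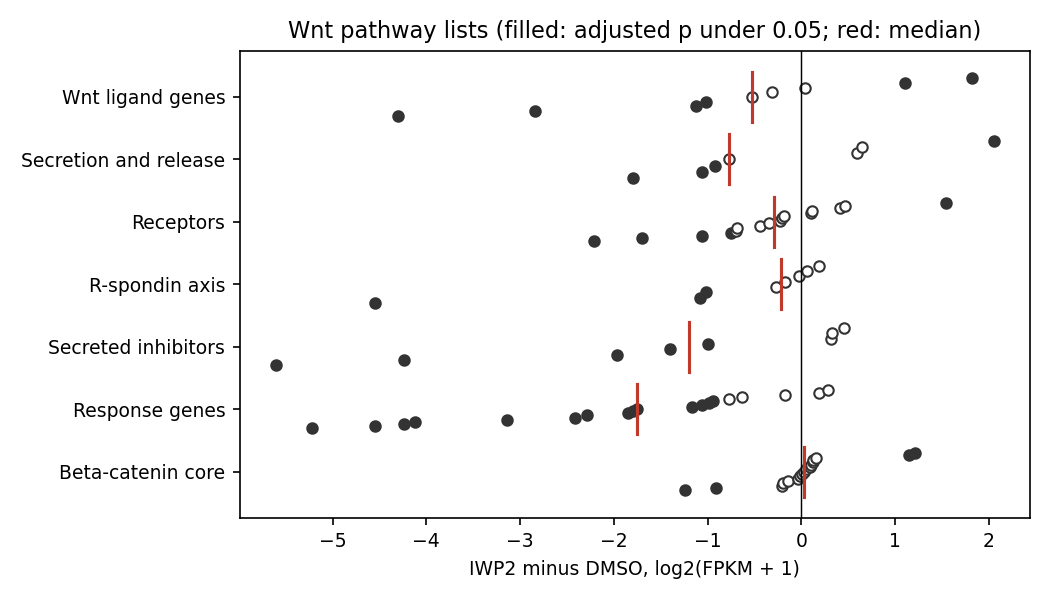
Difference between IWP2 and DMSO on the log2(FPKM + 1) scale for each tested gene of the Wnt ligands and of 6 pathway lists, filled where the adjusted p was under 0.05, with the median of each list in red. The response genes have the lowest median, at -1.75, and the β-catenin core lies near 0, at 0.03, while the ligands spread to both sides.

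The genes whose profile over the 4 libraries came nearest to that of the top ligands were found by the Euclidean distance of mean-centered log2(FPKM + 1) values among 14022 rows with a mean of at least 1 FPKM. For WNT5B these were AC095350.2, GRAP2 and RASSF10, at distances of 0.13, 0.15 and 0.18. For WNT5A, genes at a short distance included BMP2 and GSC, at 0.17 and 0.22. BMP2 stood at 101 and 122 FPKM in DMSO and 4.55 and 4.52 FPKM with IWP2, and GSC at 18.8 and 31.4 FPKM against 0.118 and 0.368 FPKM. With 4 libraries in 2 groups, such a distance mostly reflects the size of the group difference.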

How the data were processed

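RNA-seq libraries of H1 cells were prepared from 2 µg of total RNA with a TruSeq kit that does not mark strand. The submitters' processing notes name BWA, Bowtie, RSEM and hg19 without versions or roles, whereas 96.8% of rows carry the GRCh38 coordinates of GENCODE 29. The deposited table gives FPKM values per library, computed by the authors. The unit is not in its header and was taken from the description of the table and from its values, which are not whole numbers. Columns were assigned by their names, those of the controls (named without IWP2) to the DMSO group only. Starts were written 1-based.

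Rows with a mean of at least 0.1 FPKM over the 4 libraries were tested with limma 3.58.1 in R 4.3.3 (log2(FPKM + 1), intensity trend, no replicate term, Benjamini-Hochberg). Fold values are ratios of mean FPKM. The fit was run on simulated data with independent libraries and changes planted only in rows of higher level. That run does not cover ligands of low level or libraries from a shared culture. Alternatives changed the pseudocount to 0.1, the filter, the scaling, the trend, the replicate block or the libraries. Ligand genes were all named. In each other list at most 6 called genes of at least 1 FPKM in a group were named by size of change, plus PORCN and WLS. GATA1, SOX1, PAX6, ZIC1, CGA, SOX17, SFRP2, DKK3, SFRP5, GATA3, TFAP2C, ISL1, further Wnt genes and neighboring genes were named outside this rule, after their values were seen. A gene near WNT5A by profile is not reported here. The genes and lists were chosen with earlier results of these data known.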

Additional observations from a re-analysis of the deposited data

How the results depend on the processing

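The calls of the 6 ligand genes held with a pseudocount of 0.1, a filter at 1 FPKM, median-ratio scaling and no intensity trend. With no filter, limma called 2 ligand genes lower (WNT5A and WNT5B) and 0 higher, 263 rows lower and 118 higher with 5731 at an unadjusted p under 0.05, and 13 pathway genes lower and 1 higher. Leaving out each library in turn gave 0 calls of ligand genes, of all rows and of pathway genes in each of the 4 limma fits (lowest and highest 0), with 3401 to 4779 rows at an unadjusted p under 0.05. The lone library of a group was then assumed to vary like the other group. Only the sign of WNT8A changed, between -0.33 and 0.41 (-0.12 without IWP2 replicate 1). The groups of the other tested ligand genes did not overlap, so their signs could not change. With a replicate block, 3 ligand genes were lower and 1 was higher, since WNT4 (limma adjusted p = 0.0579) and WNT6 (limma adjusted p = 0.0636) missed the threshold, as did APC (limma adjusted p = 0.0679), and 815 rows were lower and 610 higher. The differences between replicates 1 and 2 correlated at 0.126 over genes between the groups, and as nothing says that a number marks a shared culture, the libraries share only a number, which for the controls is that of the column name. For the other 9 Wnt genes limma made 0 calls under every setting. The edgeR alternative was not run, since the table holds no counts, and without counts the precision of ligands under 1 FPKM is not known.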

Other observations

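Markers of the amnion and trophoblast, cells that BMP4 can also induce in human embryonic stem cell cultures, moved in both directions. Of 7 such genes, 6 were tested, 2 were higher and 1 was lower, with summed FPKM of 331 and 403 in DMSO and 235 and 260 with IWP2. The median log2 difference of the tested genes was 0.53, and without HAND1, left out after the values were seen, the sum was higher with IWP2, at 134 and 141 against 97.5 and 80.5. KRT7, a keratin of simple epithelia, rose from 0.833 and 0.864 FPKM to 5.85 and 8.22 FPKM (limma adjusted p = 0.00803) and TFAP2A, a transcription factor of surface ectoderm and amnion, rose from 16.5 and 12.01 FPKM to 34.0 and 34.2 FPKM (limma adjusted p = 0.0178). HAND1, a factor of lateral mesoderm and extraembryonic tissue that is also in the mesoderm list, fell 2.53-fold. The other 3 tested genes did not pass. GATA3 had lower values with IWP2 (34.6 and 37.7 FPKM against 39.7 and 43.7). TFAP2C had higher ones (53.7 and 53.8 FPKM against 33.9 and 16.8, limma adjusted p = 0.111), and its control libraries lay far apart. The higher sum without HAND1 thus rests in part on a gene that was not called. ISL1 had overlapping groups. CGA, a hormone subunit of mature trophoblast, stayed at or below 0.0998 FPKM. Among 5 neuroectoderm markers 4 were tested, with OTX2 lower (from 55.8 and 61.2 FPKM to 2.19 and 2.95 FPKM with IWP2) and NES higher. PAX6 had lower values with IWP2 (0.0838 and 0.0278 FPKM against 1.33 and 0.646) but did not pass (limma adjusted p = 0.0727). ZIC1 had overlapping groups, and SOX1 stayed at or below 0.0355 FPKM. The summed FPKM of this list was 156 and 149 in DMSO and 139 and 128 with IWP2. The part of these marker lists in the changes of the ligand genes was not tested.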
